A study of Mus musculus with 18 samples.

Results

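The genes described here are the zinc finger genes that the mouse annotation names Zfp followed by a number, 234 entries under 232 symbols that averaged at least 20 counts over the 6 TruSeq libraries of mouse liver. They were taken from 326 such entries in the sense-strand TruSeq table, where 11529 genes of any name reached 20 counts, and all 234 were also listed in the Pico and V4 tables, which together with TruSeq name 21018 genes. Zfp36 carries another kind of zinc finger, binds AU-rich mRNA and was left out. The minimum used the level over both treatments, so the levels of the Zfp genes in TruSeq are a description.

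C2H2 zinc finger proteins carry tandem fingers, each a short loop held by a zinc ion through a pair of cysteines and a pair of histidines, and an array of fingers reads a stretch of DNA. Many of them also hold a KRAB domain, which recruits the co-repressor TRIM28 (KAP1), the histone methyltransferase SETDB1 and HP1 proteins, and is known for silencing transposons and guarding imprinted loci. Others lack KRAB and act at ordinary promoters, and a few bearing the Zfp name bind RNA, ribosomes or translation factors instead of DNA. Most are transcribed at low levels in many tissues, liver included. Interleukin-1β (IL-1β) is an inflammatory cytokine that makes the liver switch on acute phase genes within hours.

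The libraries were made from liver of twelve-week-old male C57/B6J mice. Of the 6 mice, 3 (ILB_9579, ILB_9582 and ILB_9583) received 20 µg/kg of IL-1β into the peritoneum and 3 (UNT_9574, UNT_9575 and UNT_9576) received saline, and all livers were taken 4 h later. No genotype or allele distinguished the groups. RNA of every mouse went into each of 3 library kits, TruSeq (stranded, poly(A) RNA, the largest input), Pico (stranded, total RNA with ribosomal sequence removed enzymatically, low input) and V4 (unstranded, poly(A) RNA, low input), which makes 18 libraries. The kits also differed in input and time of preparation, and TruSeq differed from Pico and V4 in read length and sequencer, which those 2 shared. The parts of the differing items in what sets 2 kits apart cannot be told apart. The comparisons of the 3 kits share the same 6 mice, so they are given side by side and not as independent repeats. All per-mouse values below follow the order of mice just given.

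Total counts per library were 12348864 to 12858237 in TruSeq, 4024632 to 4134070 in Pico and 12013453 to 12352473 in V4. All 6 acute phase genes examined, among them Saa1 and Lcn2, rose in each kit, with median log2 fold changes of 7.43, 7.48 and 7.61 in TruSeq, Pico and V4. The hepatocyte markers Alb, Apoa1, Ttr, Serpina1a, Cps1 and Ass1 summed to 60007 to 66489 CPM (counts scaled to a common library total) after IL-1β and 86049 to 103907 after saline in TruSeq, so the genes of the labelled tissue were abundant in every library. Changes were tested in each kit with limma-voom on library totals and called at a Benjamini-Hochberg adjusted p of at most 0.05. Scaling by trimmed means (TMM) in place of totals shifted the median response over all genes upward, by 0.16 log2 units in TruSeq, 0.13 in Pico and 0.17 in V4.

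Description by the annotation placed the Zfp genes as moderately long and weakly expressed. Their median exon length was 3980 bases, against 3557 for the 11529 genes of at least 20 TruSeq counts, whereas the median span from first to last base was shorter, 15568 against 21457 bases. Per length the median TruSeq level was 1.98 RPKM (reads per kilobase of exon, scaled to the library total), against 5.23 RPKM for those genes. The highest levels were those of Zfp259 (22.3 RPKM), Zfp706 (18.4 RPKM) and Zfp598 (17.3 RPKM), and the lowest those of Zfp608 (0.237 RPKM), Zfp334 (0.258 RPKM) and Zfp30 (0.328 RPKM). The Zfp genes were thus long in exons and not in gene body.

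A KRAB A-box was found in the annotated protein of 123 of the 234 genes and not in the other 111. A missed match does not show that the domain is absent, so genes called without KRAB are those with no match. The KRAB genes had a median of 12 fingers, a transcript GC content of 42.6% and 1.53 RPKM. Those without KRAB had a median of 7 fingers, 51.0% GC and 2.64 RPKM. The most fingers, 37, were in Zfp142, and 8 genes matched the finger pattern nowhere, Zfp259 and Zfp330 among them. Chromosome 7 held 54 of the genes (30 with KRAB), chromosome 17 held 33 (28 with KRAB) and chromosome 8 held 19 (11 with KRAB). KRAB genes are known to lie in such clusters.

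Just inside the 20-count minimum were Zfp112 (20.3 counts), Zfp319 (its entry ENSMUSG00000074140, 20.5 counts) and Zfp775 (21.2 counts), and just outside it were Zfp951 (19.7 counts), Zfp619 (19.3 counts) and 4 genes at 19.2 counts each, Zfp418, Zfp11, Zfp935 and Zfp709. Of the 234 genes, 13 averaged under 20 counts in the IL-1β libraries and 2 in the saline libraries, so a few entered through 1 group. The 13 include Zfp362, Zfp608, Zfp784 and Zfp873, which passed the minimum through the saline libraries where they were higher, so the minimum favoured their lower TruSeq values after IL-1β, which are given below as a description. The other 9 are Zfp775, Zfp30, Zfp438, Zfp112, Zfp667, Zfp763, Zfp820, Zfp708 and the Zfp319 entry ENSMUSG00000074140, and the 2 are Zfp251 and Zfp658. Over 20% of the transcript's 100-base stretches, sought on both strands, occur in other genes for 6 genes, whose counts may be uncertain. They are Zfp142, Zfp784, Zfp932, Zfp960, Zfp97 and Zfp963. For Zfp142 and Zfp784 the sharing named below is with an opposite-strand gene, which the stranded TruSeq and Pico counts separate and the V4 counts do not. In all, 34 overlapped exons of a gene on the opposite strand, which the unstranded V4 counts cannot separate. For 218 of the 234 the shared part was under 5%.

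The promoters of the Zfp genes held a recurring element, printed here because, of 3 searched, it was the one furthest above its share among all promoters. The 12 letters searched on both strands of the 250 bases before the start were ACTACA, any base and TTCCC, those of the element that ZNF143 (the human counterpart of the Zfp143 product) binds. They were chosen after the promoters of the called genes were seen. RefSeq promoters (GRCm38.p6) were matched for 190 of the 234 genes. Of the genes called in TruSeq, 5 held the element. Below, capitals mark it, with 9 flanking bases on each side.
Zfp790: cggccttgaACTACATTTCCCagaatacct
Zfp189: ggcaagcgaACTACATTTCCCggaatgcat
Zfp180: ctcaatggaACTACAATTCCCagaactctc
Zfp146: cgactttggACTACACTTCCCacaaggcac
Zfp692: ctaaggctaACTACAATTCCCggcaggctt

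On GRCm38.p6 these copies lie at chr7:29815959-29815988 (minus strand, 104 bases before the start of Zfp790), chr4:49521145-49521174 (minus strand, 22 bases before Zfp189), chr7:24081865-24081894 (minus strand, 23 bases before Zfp180), chr7:30169851-30169880 (plus strand, 130 bases before Zfp146) and chr11:58307012-58307041 (plus strand, 48 bases before Zfp692). The element stood in 27 of the 190 promoters (14.2%), against 254 of 27025 promoters of all genes (0.940%), and the Zfp genes made up 10.6% of all promoters that hold it. It was found in 22 of 107 KRAB promoters (20.6%) and 5 of 83 without KRAB (6.02%). By response in TruSeq it was in 4 of 37 promoters of genes that rose (10.8%), 1 of 30 of genes that fell (3.33%) and 22 of 123 of genes not called (17.9%). No test was made of these shares. The spaced palindrome TTCNNNGAA, the core letters read by STAT factors, was in 30 of 190 promoters (15.8%), against 7.18% of all promoters. It can share bases with the first element, since TTCCC followed by its flank may read as the palindrome, as in the copies of Zfp790, Zfp189 and Zfp180 printed above. Of the 190 promoters, 11 held such a shared match and 21 a palindrome sharing no base with the element (11.1%, against 6.99% of all promoters). Among genes that rose, 4 of 37 held one sharing no base (10.8%), and among genes that fell 0 of 30. The NF-κB consensus was in 1 of 37 (2.70%) and 5 of 30 (16.7%), against 7.01% of all promoters. Such matches describe letters in a window and not occupied sites.

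After IL-1β, the liver's Zfp genes moved in both directions in TruSeq: 45 rose, led by the KRAB gene Zfp9 (6.99-fold higher), and 38 fell, led by Zfp395 (8.46-fold lower), while 151 were not called. The genes that fell include Zfp362, Zfp608, Zfp784 and Zfp873, whose lower values the minimum favoured. Over all 19424 genes tested, 12.3% rose and 21.8% fell, and over genes of at least 20 counts 17.9% rose and 30.8% fell. Thus the 19.2% of Zfp genes that rose was near the share among genes of at least 20 counts. The 16.2% that fell lay below it, a gap that was not tested. These sets were not matched in level, with a median of 88.8 TruSeq counts for the Zfp genes and 229 for genes of at least 20 counts. The CPM of the groups did not overlap for 65 genes higher and 50 lower, 49.1% of the Zfp genes, against 44.9% of all genes (17.1% higher and 27.9% lower) and 62% of genes of at least 20 counts. The median log2 fold change of the Zfp genes was 0.039, against −0.17 over all genes, a difference of 0.21. With TMM scaling 66 Zfp genes rose and 29 fell, while 2859 rose and 2602 fell of the 11529 genes of at least 20 counts, and the difference of the medians was 0.21 again. Leaving out mouse UNT_9574 lowered the genes called higher to 25, and with all libraries thinned to 4024632 counts, the smallest Pico total, 14 rose and 13 fell.

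In TruSeq KRAB genes and the others had close medians and unlike lower tails. Their upper tails were close, with 82.9% and 81.1% at or below a log2 fold change of 0.5. The KRAB genes also had fewer counts, a median of 69.8 against 146. Of 123 KRAB genes, 20 rose (16.3%) and 9 fell (7.32%), and of the 111 others, 25 rose (22.5%) and 29 fell (26.1%). With TMM scaling the KRAB counts were 25 and 5 and the others 41 and 24. The median log2 fold changes were 0.014 and 0.056. A log2 fold change of −0.5 or less was found in 11.4% of KRAB genes, 28.8% of the others and 28.1% of genes of at least 20 counts. In Pico the same shares were 23.6%, 26.1% and 28.4%, and in V4 31.7%, 36.9% and 33.4%, and the Pico gap was wider further down, with 7.32%, 13.5% and 16.3% at −0.8 or less. Whether the 2 classes differ was not tested.

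**Figure D1:**
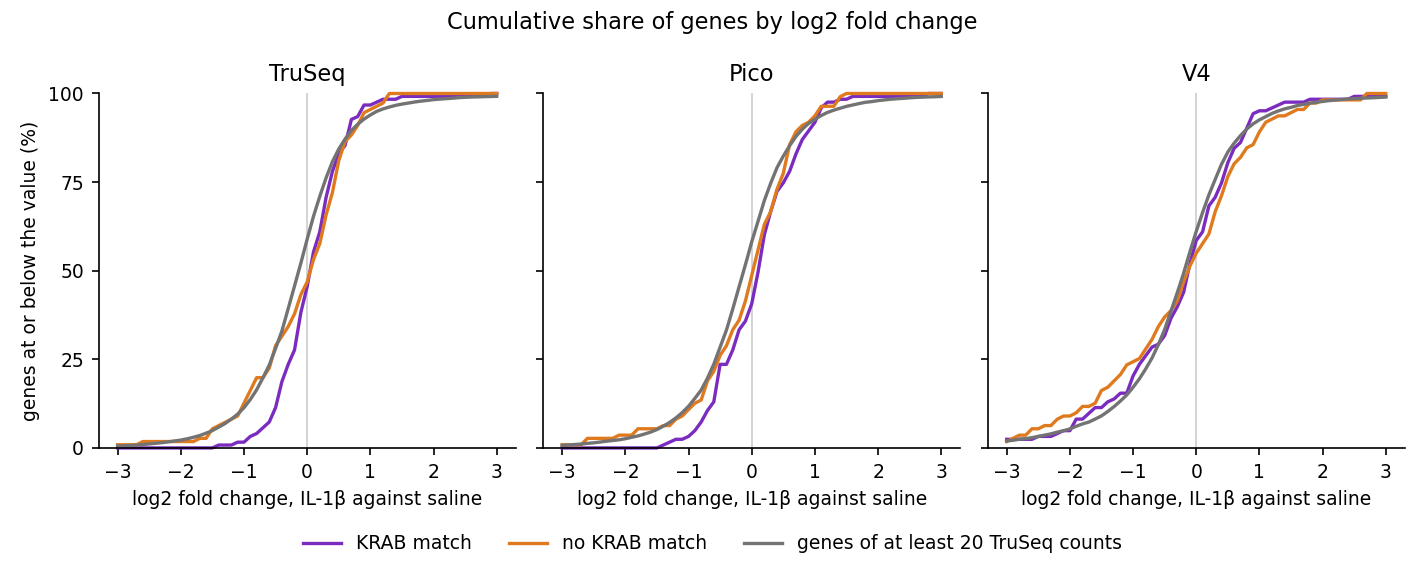
Cumulative share of genes (vertical axis, %) at or below each log2 fold change of IL-1β against saline (horizontal axis), for 123 Zfp genes with a KRAB match, 111 without and the genes of at least 20 TruSeq counts, in each kit. In TruSeq the KRAB curve stands below the other curves left of 0, at 11.4% against 28.8% and 28.1% at a log2 fold change of −0.5, and in V4 the 3 curves lie close together.

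By position and build, 15 of the 54 genes on chromosome 7 rose in TruSeq (27.8%) and 8 fell (14.8%), against 30 and 30 of the 180 on other chromosomes. On chromosome 17, which holds mainly KRAB genes, 2 of 33 rose and 4 fell. Genes with at least 16 fingers had a median log2 fold change of 0.32 (8 of 39 rose, 4 fell), and those with 1 to 5 fingers one of −0.15 (8 of 43 rose, 16 fell). Over genes of at least 20 counts, 17.9% rose and 30.8% fell. With TMM scaling 15 and 1 of the genes with at least 16 fingers and 14 and 12 of those with 1 to 5 were called higher and lower, and no difference between these classes was tested.

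Zfp9, a KRAB protein with 12 fingers (mm9 chr6:118411968-118429338, minus strand), had the largest rise. TruSeq counts were 356, 355 and 385 after IL-1β and 45, 72 and 47 after saline, a log2 fold change of 2.80 ± 0.18 (SE, adjusted p = 7.48e-06). Each IL-1β mouse was far above each saline mouse, and the groups did not overlap. Where not said otherwise, values with ± below are log2 fold changes of IL-1β against saline with their SE. Pico gave 192, 128 and 138 against 16, 41 and 16 (2.77 ± 0.38, adjusted p = 7.36e-05). V4 gave 50, 101 and 106 against 10, 19 and 0 (4.13 ± 1.07, adjusted p = 0.0314), again without overlap. The V4 call was lost without mouse ILB_9582, ILB_9583, UNT_9574, UNT_9575 or UNT_9576.

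Other KRAB genes rose less. Zfp324 (mm9 chr7:13551187-13559585, plus strand) had TruSeq counts of 225, 280 and 262 after IL-1β and 75, 126 and 98 after saline (1.42 ± 0.18, adjusted p = 0.000354). Its groups were apart in TruSeq, in Pico as well (118, 106 and 142 against 31, 100 and 54, a log2 fold change of 1.15 ± 0.32, adjusted p = 0.0172), but overlapped in V4 (66, 106 and 102 against 54, 100 and 68, a log2 fold change of 0.32 ± 0.38, adjusted p = 0.655). The Pico call of Zfp324 was lost when any mouse other than UNT_9575 was left out. Zfp790, whose promoter copy heads the list printed above, had 300, 332 and 283 against 120, 173 and 136 in TruSeq (1.15 ± 0.15, adjusted p = 0.000375) and rose in Pico (0.79 ± 0.21, adjusted p = 0.0124, lost without mouse ILB_9582 or UNT_9574). Zfp869, on chromosome 8, had 232, 255 and 209 against 122, 117 and 116 (1.01 ± 0.13, adjusted p = 0.000377) and was not called in Pico (0.73 ± 0.30, adjusted p = 0.118). Zfp110, known as a binding partner of the p75 neurotrophin receptor and named after its values were seen, rose in TruSeq (0.85 ± 0.11, adjusted p = 0.000355) and Pico (0.86 ± 0.17, adjusted p = 0.00164).

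Zfp931 was the KRAB gene with the largest fall. Its TruSeq counts were 21, 27 and 19 after IL-1β and 51, 72 and 68 after saline (−1.45 ± 0.24, adjusted p = 0.00154), with no overlap, and 11.3% of its transcript is shared with predicted genes. Pico counts were 8, 10 and 14 against 33, 12 and 11 (−0.60 ± 0.58, adjusted p = 0.553), which overlapped.

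Summed over the 123 KRAB genes, TruSeq CPM were 988, 1061 and 968 after IL-1β and 859, 839 and 945 after saline. Every IL-1β mouse was above every saline mouse, also in Pico (1324, 1385 and 1360 against 1201, 1261 and 1207), whereas the V4 sums overlapped (398, 458 and 456 against 497, 513 and 392). Over the 111 other genes TruSeq CPM were 1972, 2023 and 2008 against 1951, 1949 and 1931, Pico CPM 2599, 2680 and 2766 against 2709, 2870 and 2594, and V4 CPM 985, 1004 and 999 against 1055, 1072 and 1092. Here the order changed with the kit: the IL-1β mice were above in TruSeq, mixed with saline in Pico and below in V4. All 234 genes together made up 3007 ± 67.5 CPM after IL-1β and 2825 ± 46.0 CPM after saline in TruSeq (mean ± SD, n = 3), with no overlap. In Pico these sums overlapped (3923 to 4127 against 3801 to 4131 CPM), and in V4 they lay the other way round without overlap (1384 to 1463 after IL-1β against 1484 to 1585 after saline). All these sums are on library totals. TMM scaling, which shifted the V4 median response over all genes upward by 0.17 log2 units, was not applied to them, so the order of the groups may depend on the scaling.

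**Figure D2:**
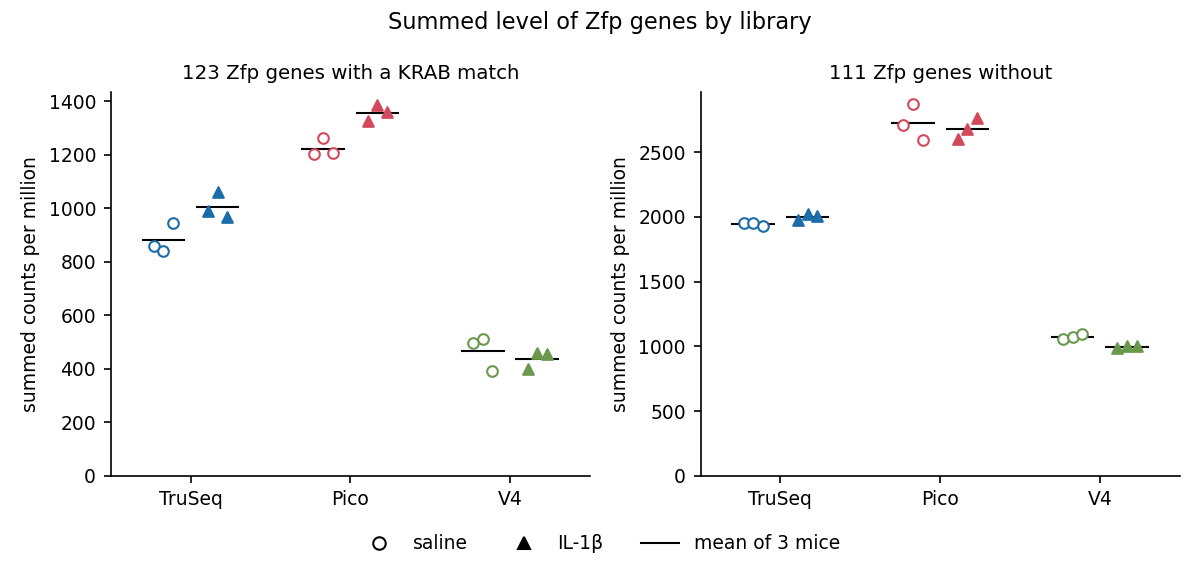
Summed CPM (vertical axis, from 0) of the Zfp genes with a KRAB match and of those without, in each of the 18 libraries by kit, with circles for saline, triangles for IL-1β and bars for the mean of 3 mice. The KRAB sums after IL-1β lie above those after saline in TruSeq (968 to 1061 against 839 to 945) and Pico (1324 to 1385 against 1201 to 1261) and overlap in V4. No TMM scaling was applied to these sums.

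Among genes without KRAB, those that fell reached further than those that rose. Zfp395 (mm9 chr14:65977513-66017767, plus strand) had TruSeq counts of 60, 53 and 73 after IL-1β and 571, 683 and 404 after saline (−3.08 ± 0.25, adjusted p = 2.6e-05). The lowest saline mouse (404) was far above the highest IL-1β mouse (73). Pico gave 15, 36 and 39 against 171, 231 and 141 (−2.63 ± 0.37, adjusted p = 8.29e-05) and V4 11, 8 and 17 against 76, 80 and 71 (−2.66 ± 0.54, adjusted p = 0.0107). It fell in all 3 kits.

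Zfp467 (mm9 chr6:48377696-48395824, minus strand), known for turning marrow stromal cells toward fat in place of bone, had 34, 29 and 29 against 214, 209 and 182 in TruSeq (−2.65 ± 0.18, adjusted p = 1.09e-05). Pico gave 20, 13 and 16 against 106, 127 and 88 (−2.65 ± 0.38, adjusted p = 0.000105), and V4 49, 80 and 35 against 126, 153 and 228 (−1.65 ± 0.41, adjusted p = 0.026, lost without mouse ILB_9579, ILB_9583, UNT_9575 or UNT_9576). The groups were apart in each kit. Zfp710 on chromosome 7 followed with 52, 40 and 61 against 145, 155 and 175 in TruSeq (−1.60 ± 0.18, adjusted p = 0.000177), −1.82 ± 0.30 in Pico (adjusted p = 0.0004) and −2.92 ± 0.69 in V4 (adjusted p = 0.0218, lost without mouse ILB_9582, ILB_9583, UNT_9574 or UNT_9575). Zfp444, which binds the promoter of the scavenger receptor Scarf1 in endothelial cells, had 27, 44 and 41 against 95, 116 and 108 (−1.48 ± 0.21, adjusted p = 0.000633). Its log2 fold change was −1.49 ± 0.39 in Pico (adjusted p = 0.0133, lost without mouse ILB_9582 or ILB_9583) and −1.37 ± 0.33 in V4 (adjusted p = 0.0219, lost without mouse ILB_9579, ILB_9582, ILB_9583 or UNT_9575). Zfp395, Zfp467, Zfp710 and Zfp444 were called lower in all 3 kits.

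The rest of the largest falls were called in TruSeq and less evenly elsewhere. Zfp516, an activator of the brown fat gene Ucp1, had 29, 19 and 31 against 79, 80 and 82 (−1.58 ± 0.22, adjusted p = 0.000518) and fell in Pico (−1.85 ± 0.46, adjusted p = 0.00963, lost without mouse ILB_9579, ILB_9583 or UNT_9574). Zfp629 had 93, 75 and 91 against 204, 199 and 241 (−1.27 ± 0.15, adjusted p = 0.000206), with a Pico call (−0.91 ± 0.30, adjusted p = 0.0421) that was lost with TMM scaling and without any mouse except UNT_9575. Both kept their groups apart in TruSeq. Zfp362 had 16, 14 and 28 against 64, 74 and 57 (−1.74 ± 0.28) and no call in Pico (−0.74 ± 0.42, adjusted p = 0.264). Zfp784 had 10, 11 and 15 against 32, 26 and 36 (−1.31 ± 0.29) and shares 34.5% of its transcript with an opposite-strand gene, 4632433K11Rik. Zfp608 had 11, 12 and 12 against 40, 29 and 42 in TruSeq (−1.56 ± 0.28), but 30, 30 and 42 against 40, 37 and 40 in Pico (−0.19 ± 0.32, adjusted p = 0.726). The groups of Zfp608 were apart in TruSeq and overlapped in Pico, and the difference between the kits was 1.38 ± 0.45 with an adjusted p of 0.90. That difference draws on the TruSeq values that the minimum favoured.

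Markers of the cell populations of liver changed as well, in both directions. In TruSeq 5 of 6 Kupffer cell and macrophage markers were lower and Marco higher (sum 62.6 to 89.6 CPM after IL-1β, 130.3 to 217 after saline), 5 of 6 markers of sinusoidal endothelium were lower and Lyve1 higher (72.6 to 91.8 against 166 to 193), and 4 of 4 stellate cell markers were lower (142 to 187 against 273 to 309). Hepatocyte markers were lower for 4 of 6 genes, lymphocyte markers for 2 of 5 at sums of at most 3.24 CPM, and 5 of 6 neutrophil markers were higher (39.5 to 80.2 against 1.71 to 3.00 CPM), with the neutrophil granule genes Ngp and Camp at 0 in all TruSeq saline libraries. In Pico 4 of 6 macrophage, 4 of 6 endothelial and 3 of 4 stellate cell markers were called lower, and Lyve1 higher. In V4 2, 3 and 2 of these were called lower and none higher. Neutrophil markers were called higher for 5 of 5 in Pico and 5 of 6 in V4. The part of these cell populations in the changes of the Zfp genes was not tested. In bulk liver, fewer cells of a type and less RNA per cell cannot be told apart.

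Of the genes without KRAB that rose, 4 besides Zfp259 and Zfp330 were among the largest. Zfp295, now named Zbtb21, rose in each kit: 274, 264 and 193 against 72, 109 and 146 in TruSeq (1.24 ± 0.24, adjusted p = 0.00302), 152, 152 and 125 against 52, 41 and 86 in Pico (1.34 ± 0.26, adjusted p = 0.00173) and 165, 106 and 143 against 12, 26 and 31 in V4 (2.64 ± 0.50, adjusted p = 0.00707). No IL-1β library reached down to a saline library in any kit. Zfp142 had 275, 256 and 305 against 96, 140 and 128 (1.25 ± 0.16, adjusted p = 0.000278) and rose in Pico (1.10 ± 0.27, adjusted p = 0.009, lost without mouse ILB_9582 or UNT_9574). Of its transcript, 20.6% is shared with its opposite-strand neighbour Plcd4, whose reads the unstranded V4 counts cannot separate. Zfp828, now Champ1, a protein of chromosome alignment in mitosis, had 259, 212 and 223 against 106, 135 and 116 (a 2-fold rise with an SE of 0.14 on the log2 scale, adjusted p = 0.000611) and rose in Pico (1.34 ± 0.30, adjusted p = 0.00462, lost without mouse ILB_9582). Zfp341, whose human counterpart controls transcription of STAT3, had 45, 46 and 47 against 26, 26 and 21 in TruSeq (0.96 ± 0.21, adjusted p = 0.00653) and overlapping counts in Pico (25, 22 and 24 against 17, 26 and 24, a log2 fold change of 0.13 ± 0.40, adjusted p = 0.86).

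**Figure D3:**
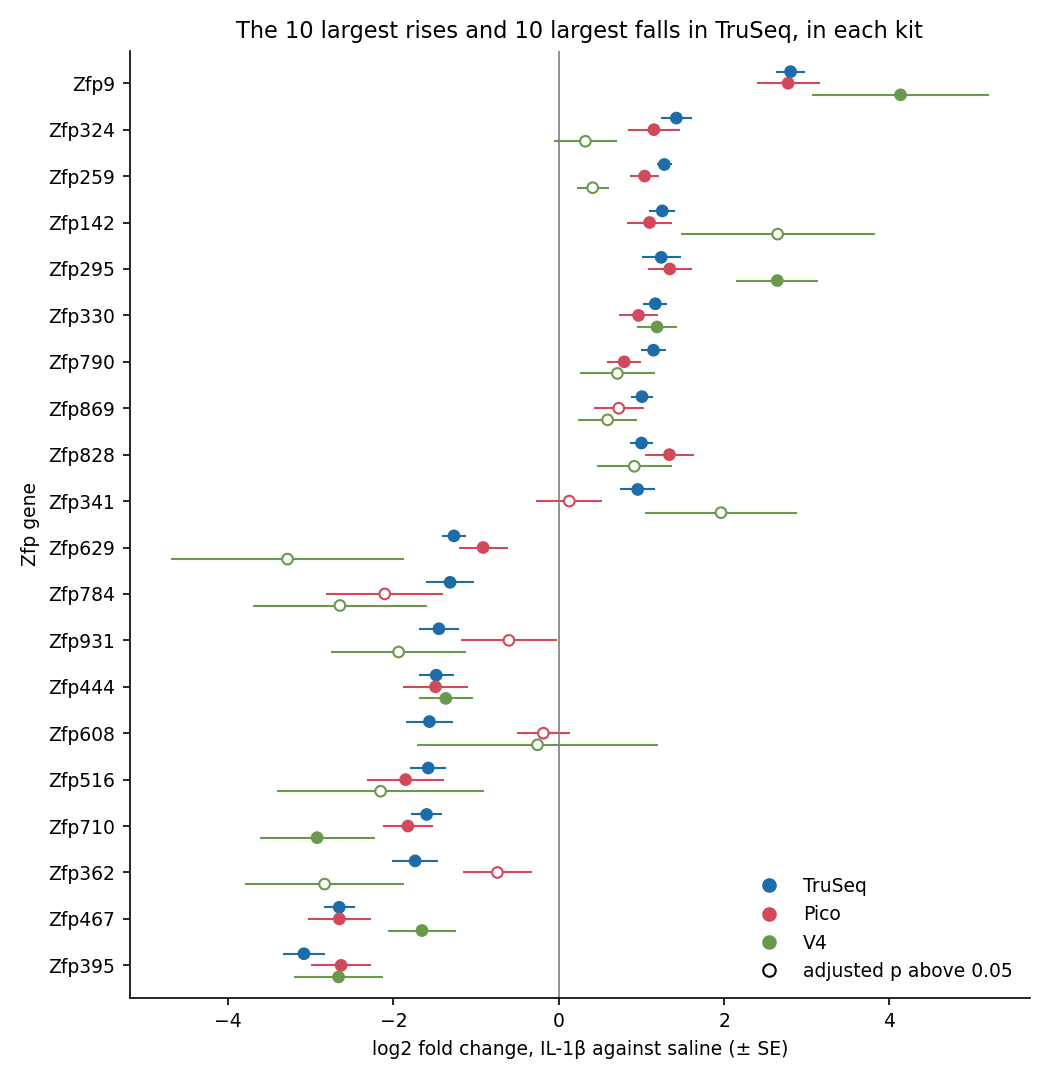
Log2 fold change of IL-1β against saline with SE (horizontal axis) for 10 Zfp genes that rose most and 10 that fell most in TruSeq, shown for TruSeq, Pico and V4. Filled points have an adjusted p of at most 0.05 (limma-voom), and the 20 genes, chosen on TruSeq, stand on the same side of 0 in each kit, from −3.08 (Zfp395) to 2.80 (Zfp9) in TruSeq. Zfp362, Zfp608 and Zfp784 passed the count minimum through the saline libraries, so their TruSeq falls are only a description.

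**Figure D4:**
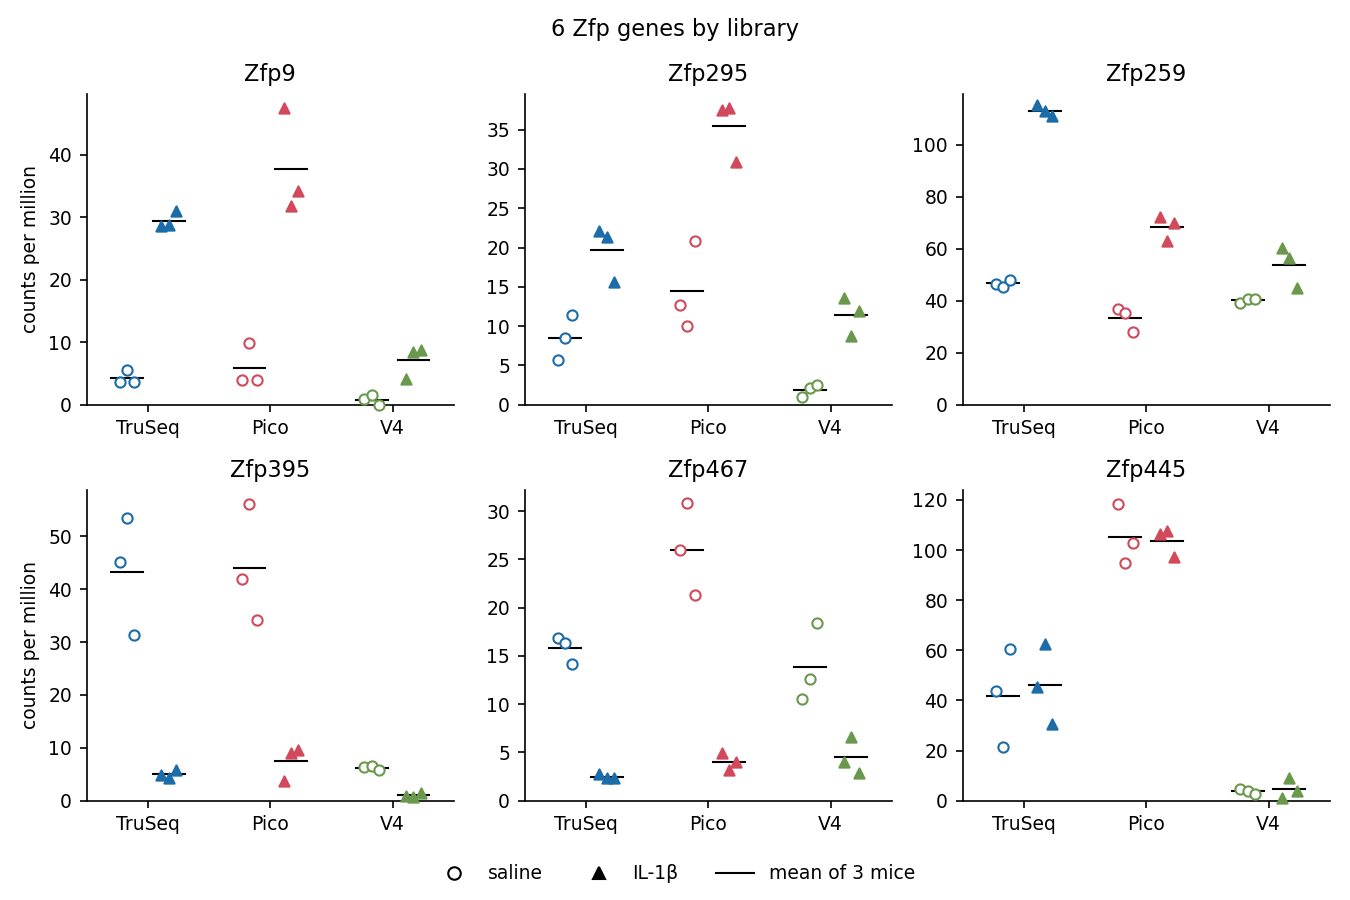
CPM (vertical axes, from 0) of 6 Zfp genes in each of the 18 libraries by kit, with circles for saline, triangles for IL-1β and bars for the mean of 3 mice. Zfp9, Zfp295 and Zfp259 stand higher after IL-1β and Zfp395 and Zfp467 lower with no overlap in any kit, whereas the Zfp445 groups overlap in each.

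A list of DNA-binding or chromatin proteins, drawn up by role as lacking KRAB, held 24 measured genes. Of these 7 rose and 6 fell in TruSeq, 3 rose and 6 fell in Pico, and 1 rose in V4. Median log2 fold changes were 0.084, 0.018 and 0.086. Among genes of at least 20 TruSeq counts, 17.9% rose and 30.8% fell in TruSeq, 9.46% and 15.7% in Pico, and 4.97% and 10.3% in V4, and this list too was chosen with values known. Zfp143, which activates promoters holding the element printed above, rose from 101, 105 and 88 counts after saline to 195, 139 and 200 after IL-1β (0.89 ± 0.18, adjusted p = 0.00394), and in Pico by 0.99 ± 0.27 (adjusted p = 0.0175). Zfp335, a component of H3K4 methyltransferase complexes, rose by 0.85 ± 0.13 (adjusted p = 0.000771), with its groups well apart (354, 317 and 379 against 189, 186 and 227). Falls included Zfp217, a partner of the CtBP co-repressor (97, 73 and 107 against 204, 201 and 198, a log2 fold change of −1.09 ± 0.16, adjusted p = 0.000616), Zfp281 (−0.83 ± 0.12, adjusted p = 0.000659) and Zfp148 (−0.67 ± 0.14, adjusted p = 0.00465), which bind GC-rich promoters. Zfp281 and Zfp148 also fell in Pico, by 0.70 ± 0.16 (adjusted p = 0.00566) and 0.72 ± 0.15 (adjusted p = 0.0023) on the log2 scale.

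Zfp410 is known as a dedicated activator of Chd4, the remodelling ATPase of the NuRD complex, so both are set side by side. Zfp410 had 356, 373 and 349 TruSeq counts after IL-1β and 223, 259 and 211 after saline (0.68 ± 0.12, adjusted p = 0.00164), whereas Chd4 fell (−0.63 ± 0.10, adjusted p = 0.000929). The 2 genes stood on opposite sides at this single time.

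Proteins of RNA, translation, ubiquitin and the spindle that carry the Zfp name made up 12 measured genes, of which 6 rose and 3 fell in TruSeq, 2 rose and 1 fell in Pico and 1 rose in V4, with medians of 0.42, 0.41 and 0.28. The shares among genes of at least 20 counts were again 17.9% and 30.8% in TruSeq, 9.46% and 15.7% in Pico, and 4.97% and 10.3% in V4, and the list was chosen with values known. Zfp259 (mm9 chr9:46081147-46090726, plus strand), now Zpr1, binds the elongation factor eEF1A. Its counts were 1433, 1394 and 1378 after IL-1β and 588, 581 and 618 after saline in TruSeq (1.28 ± 0.09, adjusted p = 1.09e-05), a narrow spread and a wide gap. Pico gave 292, 254 and 282 against 151, 146 and 115 (1.04 ± 0.17, adjusted p = 0.000473). V4 gave 732, 682 and 539 against 469, 493 and 502 (0.41 ± 0.19, adjusted p = 0.214), where the groups were apart but close. The response in V4 was smaller than that in TruSeq by 0.87 ± 0.18, with an adjusted p of 0.20.

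Zfp330, a nucleolar protein, had 376, 375 and 371 against 153, 217 and 151 in TruSeq (1.17 ± 0.15, adjusted p = 0.000287), 111, 114 and 110 against 62, 67 and 47 in Pico (0.97 ± 0.24, adjusted p = 0.00865) and 326, 417 and 321 against 152, 176 and 139 in V4 (1.19 ± 0.25, adjusted p = 0.0119, lost without mouse ILB_9582). The 3 kits gave close estimates, and every IL-1β library was above every saline library of its kit. The ribosome biogenesis gene Zfp593 (0.83 ± 0.19, adjusted p = 0.00702), the splicing factor Zfp830 (0.60 ± 0.16, adjusted p = 0.0155), Zfp598, the ubiquitin ligase that senses collided ribosomes (0.53 ± 0.12, adjusted p = 0.00877), and Zfp622, which acts in maturation of the large ribosomal subunit (0.44 ± 0.12, adjusted p = 0.0188), rose in TruSeq. Zfp706 fell in TruSeq (−0.51 ± 0.10, adjusted p = 0.00352) and in Pico (−0.57 ± 0.17, adjusted p = 0.025), and Zfp326, of a complex joining RNA polymerase II to splicing, fell in TruSeq (−0.51 ± 0.13, adjusted p = 0.0114).

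The genes with the most TruSeq counts were also of this list. Zfp106 had 1696, 1989 and 1727 after IL-1β and 1615, 1504 and 1574 after saline, which was called with TMM scaling (0.40) but not with totals (0.25, adjusted p = 0.0836). Zfp207, a spindle protein, had 1247, 1114 and 1251 against 1046, 1053 and 1001 (0.26, adjusted p = 0.0547), and was called with TMM scaling (0.42) and without mouse ILB_9582 (0.31). Zfp91, a ubiquitin ligase of the noncanonical NF-κB pathway, had 1265, 1327 and 1307 against 1824, 1671 and 1657 (−0.36 ± 0.09, adjusted p = 0.013), a call that was lost with TMM scaling. The groups of all 3 genes were apart, and the call of each changed with the scaling.

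Zfp445, a KRAB protein that keeps imprinted loci methylated and was also measured by RT-PCR in the study, was not called between treatments in any kit. TruSeq counts were 562, 773 and 380 after IL-1β and 552, 276 and 777 after saline, with a wide spread in both groups. Pico counts were 431, 433 and 393 against 483, 390 and 425 (−0.02 ± 0.13, adjusted p = 0.956), and V4 counts 15, 107 and 48 against 55, 47 and 32 (−0.02 ± 0.65, adjusted p = 0.994). The groups overlapped in all kits, and the spread was smallest in Pico. The kits differed far more than the treatments, with Zfp445 higher in Pico than in V4 by 4.86 ± 0.28 on the log2 scale.

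In Pico, 16 Zfp genes rose and 18 fell, where 6.78% of all 18108 genes rose and 10.8% fell and, of genes of at least 20 TruSeq counts, 9.46% rose and 15.7% fell. With TMM scaling 23 rose and 11 fell, so the direction of the majority depended on the scaling. Groups did not overlap for 41 genes higher and 39 lower, 34.2% of the Zfp genes, against 31.2% of all genes (12.6% higher and 18.6% lower) and 43.2% of genes of at least 20 TruSeq counts. The median log2 fold change was 0.077, against −0.12 over all genes. Among KRAB genes 7 rose and 2 fell, with TMM 9 and 0. Among the others 9 rose and 16 fell, with TMM 14 and 11. Leaving out 1 mouse gave 9 higher and 9 lower without ILB_9579, 7 and 8 without ILB_9582, 10 and 7 without ILB_9583, 8 and 10 without UNT_9574, 13 and 14 without UNT_9575, and 10 and 14 without UNT_9576. Thinning TruSeq to the smallest Pico total, as given above, left 14 higher and 13 lower in TruSeq. The part of depth in the difference between the kits was not tested.

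In V4, 4 Zfp genes rose (Zfp9, Zfp295, Zfp330 and Zfp263) and 11 fell, where 3.6% of all 18051 genes rose and 7.41% fell and, of genes of at least 20 TruSeq counts, 4.97% rose and 10.3% fell. Groups did not overlap for 23 genes higher and 31 lower, 23.1% of the Zfp genes, against 27.6% of all genes (9.09% higher and 18.6% lower) and 37.5% of genes of at least 20 TruSeq counts. The median log2 fold change was −0.14, against −0.22 over all genes, and with TMM scaling 5 rose, 9 fell and the median was 0.030. The 11 were Zfp395, Zfp467, Zfp710, Zfp444, Zfp367, Zfp764, Zfp319, Zfp768, Zfp93, Zfp637 and Zfp422. Of KRAB genes 1 rose and 2 fell, and of the others 3 rose and 9 fell. Higher and lower calls were 3 and 7 without mouse ILB_9579, 1 and 4 without ILB_9582, 3 and 4 without ILB_9583, 2 and 7 without UNT_9574, 2 and 4 without UNT_9575, and 2 and 14 without UNT_9576. Leaving out any single mouse thus moved at least 1 of these counts by over 1.5 times.

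The difference in response between kits was tested in fits of 12 libraries. By limma-voom none of the 234 genes was called between any pair of kits. Nor was any other of the 17207 (TruSeq against Pico), 17147 (TruSeq against V4) and 16395 (Pico against V4) genes tested. The lack of calls is thus not particular to the Zfp genes. Their smallest adjusted p was 0.90 for TruSeq against Pico, 0.146 for TruSeq against V4 and 0.408 for Pico against V4. At an unadjusted p under 0.05 there were 9 (3.85%), 21 (8.97%) and 16 (6.84%) Zfp genes, where the shares of all genes were 5.49%, 6.36% and 5.49%. DESeq2 called 0, 3 and 1, and leaving out mouse UNT_9576 left 1 for TruSeq against V4. A missed threshold does not show that the kits gave the same response.

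Among the smallest interaction p-values were those of genes nearly absent in 1 group of a kit. Zfp319 (ENSMUSG00000046556, mm9 chr8:97850037-97855850, minus strand) had V4 counts of 7, 1 and 0 after IL-1β and 49, 52 and 39 after saline (−4.71 ± 0.84, adjusted p = 0.00513). TruSeq counts were 26, 42 and 45 against 49, 67 and 57 (−0.59, adjusted p = 0.095), and Pico counts 36, 22 and 25 against 38, 33 and 51 (−0.53 ± 0.36, adjusted p = 0.37). The response differed by −4.12 ± 0.81 between TruSeq and V4 (adjusted p = 0.146), and the gene overlaps Tepp on the opposite strand, whose reads V4 cannot separate. The KRAB gene Zfp93 had V4 counts of 3, 1 and 0 against 31, 37 and 15 (adjusted p = 0.00859, lost without mouse ILB_9583) and TruSeq counts of 29, 31 and 40 against 41, 45 and 46 (−0.36, adjusted p = 0.22). Zfp873 had Pico counts of 2, 1 and 0 against 11, 8 and 15 (adjusted p = 0.00579, lost without mouse ILB_9583), TruSeq counts of 13, 19 and 16 against 43, 24 and 34 (−0.98, a call lost with TMM scaling and without any mouse but UNT_9575) and V4 counts of 8, 18 and 31 against 11, 17 and 14. Zfp963, with 37.9% of its transcript shared, had Pico counts of 19, 19 and 17 against 2, 11 and 13 and TruSeq counts of 36, 35 and 41 against 40, 46 and 41. At such counts a few reads move the fold change. Zfp873 also passed the count minimum through the saline libraries, which favoured its lower TruSeq value.

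The level of the Zfp genes in the 2 low-input kits differed strongly. Of 234, 153 were higher in Pico and 15 lower than in V4 (limma-voom over 12 libraries), where 46.3% of all genes were higher and 20.9% lower and, of genes of at least 20 TruSeq counts, 47.7% and 27.9%. The median log2 ratio was 1.54, against 0.84 over all genes and 0.51 over genes of at least 20 TruSeq counts. Of KRAB genes 81 were higher and 4 lower in Pico, and of the others 72 and 11. With TMM scaling the median of the Zfp genes was 1.01.

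The ratio of Pico to V4 grew with exon length, both in the Zfp genes and in genes of at least 20 TruSeq counts. In bins of exon length under 2000, 2000 to 3000, 3000 to 4000, 4000 to 6000 and at least 6000 bases, the median log2 ratio of CPM (with 0.5 CPM added) was 0.30, 0.56, 0.93, 1.45 and 2.63 for the Zfp genes, on 24, 49, 45, 69 and 47 genes. For genes of at least 20 TruSeq counts it was −0.93, −0.33, 0.36, 1.13 and 2.22. The Zfp genes stood above those genes in every bin, by the most in the shortest. Spearman's rho with exon length was 0.54 across the 234 Zfp genes and 0.62 across genes of at least 20 counts, as a description, since genes of a library share its depth.

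**Figure D5:**
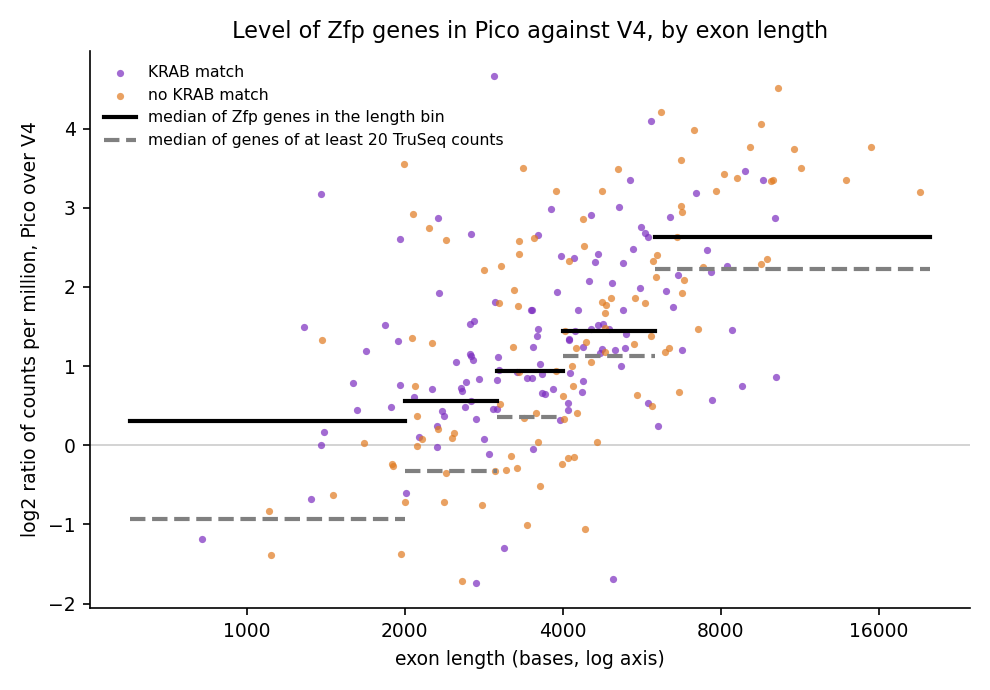
Log2 ratio of CPM in Pico over V4 (vertical axis) against exon length in bases (horizontal log axis) for the 234 Zfp genes, with bars for the median in each length bin and dashed bars for genes of at least 20 TruSeq counts. The bin medians of the Zfp genes climb from 0.30 to 2.63 and lie above those of the other genes in each bin.

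Some Zfp genes had no reads in a Pico or V4 library. A count of 0 in at least 1 library was found for 5 of them in Pico (2.14%) and 35 in V4 (15.0%). Of genes of at least 20 TruSeq counts the shares were 2.74% in Pico and 6.49% in V4, so only in V4 was the Zfp share the higher. The median SD within a group was 0.37 in Pico and 0.52 in V4 on the log2 scale, against 0.29 and 0.36 for those genes. TruSeq is not set beside these values, because the genes were chosen by their TruSeq counts. Zfp498, now Zscan25, was almost lost in V4 (0, 0 and 1 against 0, 0 and 0) while Pico gave 32, 14 and 24 against 27, 19 and 23 and TruSeq 78, 72 and 72 against 51, 37 and 51. Zfp217 had V4 counts of 7, 0 and 2 against 8, 17 and 7, so its fall in TruSeq could not be read there. The opposite order was rarer, led by Zfp560, Zfp688 and Zfp637, which were higher in V4, with log2 ratios of Pico to V4 of −2.19 ± 0.60, −1.98 ± 0.50 and −1.80 ± 0.23 (SE).

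The machinery through which KRAB proteins act was measured by 19 entries, with Atf7ip repeated under a further identifier. Of these, 3 rose (15.8%) and 4 fell (21.1%) in TruSeq, and 1 rose (5.26%) and 5 fell (26.3%) in Pico. In V4, 1 rose (5.26%). Over genes of at least 20 TruSeq counts, 17.9% rose and 30.8% fell in TruSeq, and 9.46% and 15.7% in Pico. In V4 these shares were 4.97% and 10.3%, and no difference from them was tested. Trim28 itself had TruSeq counts of 776, 760 and 811 against 770, 750 and 771 and was not called in any kit, nor was Setdb1. Chd3, the other large NuRD ATPase, fell (−1.51 ± 0.14, adjusted p = 4.45e-05), as did the HP1 gene Cbx5 (−0.57, adjusted p = 0.00729). Hdac1 fell in TruSeq (−0.59 ± 0.16, adjusted p = 0.018), as did Chd4 (−0.63 ± 0.10, adjusted p = 0.000929). In Pico Chd3, Chd4 and Cbx5 fell again, together with the DNA methylation genes Dnmt1 (−0.97 ± 0.26, adjusted p = 0.016) and Uhrf1, the latter at 0, 0 and 0 counts against 2, 5 and 4 (adjusted p = 0.0121). Daxx (0.57), Mphosph8 (0.64) and Morc2a (0.67), which serve heterochromatin silencing, rose in TruSeq, and Mphosph8 rose in Pico (0.59) and V4 (1.16) as well. The summed level of the 19 entries was lower after IL-1β without overlap in TruSeq (558 to 573 against 723 to 765 CPM) and Pico (781 to 831 against 1021 to 1192 CPM), and overlapped in V4 (194 to 216 against 193 to 227 CPM). The largest falls in mean count were those of Chd3 (2511 after saline to 865 after IL-1β in TruSeq, 940 to 339 in Pico) and Chd4 (1585 to 991 and 995 to 617). These sums thus do not stand for every entry, Trim28 and Setdb1 among them. Of 59 genes of the neighbouring Zbtb, Zscan, Zkscan and Zc3h families, 10 rose (16.9%) and 13 fell (22.0%) in TruSeq. In Pico 7 rose and 7 fell (11.9% each), and in V4 2 rose (3.39%) and 4 fell (6.78%). The shares of genes of at least 20 TruSeq counts are those given at the head of this paragraph. The medians of these families were −0.09, −0.19 and −0.13, below the medians of the Zfp genes in TruSeq and Pico.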

How the data were processed

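Per the labels and the methods of the study, the authors aligned reads with GSNAP to mm9, removed ribosomal reads, resampled libraries to equal depth within a kit with PORT and counted reads per gene. The deposited values are whole-read counts after that resampling, with no scaling per length or per total, from the sense strand in TruSeq and Pico and from both strands in V4. Which Pico preparation was deposited is not given in the sources used here. Each kit's table was normalized separately.

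Counts were fitted per kit with limma-voom (limma 3.58.1, R 4.3.3) on library totals over 19424, 18108 and 18051 genes, with Benjamini-Hochberg adjustment over all of them. Differences in response and the level in Pico against V4 were fitted on the 12 libraries of 2 kits. P-values measure the spread between mice together with that between libraries, since each mouse gave a single library per kit. In the fits of 12 libraries a mouse entered once per kit, and its libraries were treated as independent unless the mouse was a block. Alternatives were TMM factors, edgeR 4.0.16, DESeq2 1.42.0, a filter of 10 counts in 3 libraries, adjusted p of 0.01 and 0.1, at least 50 counts, thinning, leaving out each mouse and the mouse as a block. Exon lengths, GC and proteins came from GENCODE vM1, KRAB from a profile model of 197 windows of 41 residues (E at most 0.001). Summaries used Python 3.11.15.

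The RNA of a mouse was split among kits, so mice pair libraries across kits. Correlations of deviations from group means were 0.150 to 0.326 (TruSeq and Pico), 0.145 to 0.372 (TruSeq and V4) and 0.0550 to 0.176 (Pico and V4) for the same mouse, over genes of at least 20 counts. The genes and lists were chosen with earlier results of these data known. Genes were named by rule: the 10 largest rises and falls called in TruSeq, Zfp445, the 3 smallest p-values of each interaction, the 3 highest and lowest TruSeq means, the edge of the minimum, the extreme Pico to V4 ratios, and called co-repressors. Other genes named from the lists, the promoter matches and Zfp110 were chosen after their values were seen.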

Additional observations from a re-analysis of the deposited data

How the results depend on the processing

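With TMM factors the median log2 fold change of the Zfp genes moved to 0.20 in TruSeq and 0.21 in Pico, and 11 fell in Pico. In the level of Pico against V4, 24 were lower and the median was 1.01. With edgeR the genes called higher were 69 in TruSeq and 33 in Pico, the medians 0.21, 0.17 and 0.068 in TruSeq, Pico and V4, and the level had 24 lower and a median of 0.92. With DESeq2 the medians were 0.21, 0.17 and 0.070, 11 fell in Pico, 10 rose in V4, and 3 and 1 interactions were called for TruSeq and for Pico against V4. At an adjusted p of 0.01, 19 rose in TruSeq, 8 rose and 8 fell in Pico, and 1 rose and 2 fell in V4. At 0.1, 17 fell in V4. After thinning, 14 rose and 13 fell in TruSeq and 7 fell in V4. With at least 50 counts the TruSeq median was 0.13. The median of V4 changed sign with the scaling, while its difference from all genes with TMM was 0.086, as against 0.085 with totals.

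Leaving out a mouse gave 25 to 42 higher in TruSeq, 7 to 13 higher and 7 to 14 lower in Pico, 1 to 3 higher and 4 to 14 lower in V4, and 0 to 1 interactions of TruSeq and V4. With the mouse as a replicate block, 0 Zfp genes were called in each interaction, as without it, and the level had 156 higher, 15 lower and a median of 1.47, so the pairing changed no call count by over 1.5 times. Treatments share no mouse, so within-kit contrasts could not be blocked. Over the named genes, 1116 values kept direction and side of the threshold under an alternative, 68 lost the call, 20 gained it and none reversed. The median Zfp gene had 37 counts in Pico and 42 in V4.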

Other observations

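Zfp871 spread more widely within treatment in TruSeq than in the other kits. It had TruSeq counts of 65, 357 and 57 after IL-1β and 92, 36 and 391 after saline, where mice ILB_9582 and UNT_9576 were highest in their groups (SE of the log2 fold change 0.85, against a median of 0.18 over the Zfp genes). Pico counts of the same mice were 180, 214 and 191 against 332, 308 and 262, and V4 counts 55, 43 and 65 against 119, 71 and 58, without that pattern. Zfp871 fell in Pico and was at a log2 fold change of 0.048 in TruSeq. Zfp369 (77, 130 and 56 against 46, 26 and 91) and Zfp882 (19, 31 and 23 against 12, 17 and 31) had the same mice on top in TruSeq, as did Zfp445. In V4 these mice were also on top for Zfp369 (14, 25 and 6 against 7, 7 and 16), and Zfp445 spread widely there too, while in Pico Zfp369 had 105, 91 and 118 against 72, 120 and 93. Zfp882 had 16, 16 and 9 against 7, 21 and 14 in Pico and 10, 21 and 11 against 13, 24 and 0 in V4. Both mice were the highest of their groups for 39 of 234 Zfp genes in TruSeq (16.7%), against 9.09% of genes of at least 20 counts. In Pico the share was 11.1%, against 10.5%, and in V4 8.55%, against 10.6%. These mice were singled out after the values were seen, and no test was made.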
